A study of Mus musculus with 12 samples.

Results

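Fork direction in naive mouse embryonic stem cells (ESCs) that carried catalytically inactive KMT2C and KMT2D (KMT2C/D dCD, hereafter dCD) was set directly against that in naive ESCs without KMT2C and KMT2D proteins (KMT2C/D dKO, hereafter dKO). These 2 genotypes made up 4 of the 12 samples of the series, with 2 replicates per genotype, and the remaining samples were the naive KMT2C KO control and all 3 genotypes after conversion into epiblast-like cells (EpiLCs). Naive cells were kept in LIF with 2 inhibitors (2i). According to the methods, the KMT2C/D dKO cells were KMT2C KO cells with a conditional KMT2D allele, on a mixed C57BL/6 and 129 background, that express CreER and lose KMT2D upon 4-hydroxytamoxifen. The KMT2C KO control is the parental line of the KMT2C/D dKO cells and still makes KMT2D. The KMT2C/D dCD cells belong to another line, the male R1 line of 129 background, so genotype and line cannot be told apart in any value given here. Both replicates of a genotype were summed in the deposited tracks, so no spread between replicates, and hence no test between genotypes, could be had. All intervals are 95% intervals and, for the same reason, cover counting error only. Copies of a molecule were not marked by identifiers, so reads may not all be independent and the intervals may be too narrow.

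KMT2C and KMT2D (also MLL3 and MLL4) are the histone methyltransferases that place a single methyl group on lysine 4 of histone H3 at enhancers. Loss of the proteins removes their enzymatic activity and their other roles in the complex, whereas catalytically dead proteins can keep the latter. OK-seq sequences Okazaki fragments, the short pieces from which the lagging strand is made, after a pulse of the thymidine analog EdU. A fork that moves from left to right leaves fragments on the Crick strand, so the Crick share, C/(W + C), is the percentage of forks moving rightward. It climbs across sites where replication starts and falls where forks meet. In mammalian cells many initiation zones border active genes, whose promoters are often rich in CpG.

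The naive dKO track held 3937871 reads and the naive dCD track 3655095 reads. After 126 bins of 1 kb with very high counts were left out, this gave on average 37.2 and 34.5 reads per 25 kb and 744 and 691 reads per 500 kb on the autosomes and chromosome X. The EpiLC tracks were deeper, with 12962445 reads in dKO and 13601460 in dCD. In every track the Crick share also followed base composition. In the decile of 1 kb bins with the lowest T minus A content the share was 21.4% in dKO and 18.4% in dCD, and in the highest decile 78.8% and 81.6%. The dependence was therefore steeper in dCD, and several results are given below also after removal of the component that follows T minus A.

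The Crick share varied more along the genome in dCD than in dKO. This variation was measured as the amplitude, the SD of the Crick share over windows with the variance of read counting removed. In 500 kb windows the amplitude was 8.02 percentage points for the control track, 9.004 in dKO and 11.6 in dCD, so the value of dKO lay between the others but closer to that of its parental line. The difference of 2.60 points between the mutants (2.53 to 2.68) had the same direction on 20 of 20 chromosomes, where it ranged from 2.14 to 3.07. In 50 kb windows the amplitude was 13.3 in dKO and 16.5 in dCD, a difference of 3.22 points (3.15 to 3.29). Relative to dKO the dCD amplitude was 1.22 times at 20 kb, 1.29 times at 500 kb and 1.36 times at 5 Mb (5000 kb), with a small dip from 1.31 at 1000 kb to 1.299 at 2000 kb. With the T minus A component removed, the ratios at 20 kb, 500 kb and 5 Mb were 1.28, 1.34 and 1.46.

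The means of the mutants differed most at the ends of the range of fork direction. When the 5004 windows of 500 kb were sorted by the Crick share of the control, a track that is neither of the pair compared, the windows of the lowest quintile had a mean share of 37.8% in dKO and 34.5% in dCD. In the middle quintile both genotypes were at 50.04% and 50.12%. The highest quintile had 62.1% in dKO and 65.5% in dCD. Windows at either end of the control thus lay farther from 50% in dCD on average. The contrast between the outer quintiles was 24.3 points in dKO and 31.0 in dCD, a difference of 6.73 (6.50 to 6.95). After the deviations of dCD from 50% were multiplied by the ratio of the 50 kb amplitudes, dKO over dCD, this difference was 0.671 points. With the ratio of the 500 kb amplitudes, chosen after seeing the data, it was -0.230 (-0.432 to -0.0280). Without the T minus A component it was 5.60. Within quintiles the windows also varied more in dCD. The SD of the share in the middle quintile was 3.51 points in dKO and 4.82 in dCD, counting noise included, and the SD was larger in dCD in each of the 5 quintiles. Of the 1001 windows of the lowest quintile, 819 were lower in dCD, and of the 1000 windows of the highest quintile, 829 were higher. Windows with a share under 30% or over 70% made up 1.28% in the control, 2.58% in dKO and 10.3% in dCD.

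**Figure D1:**
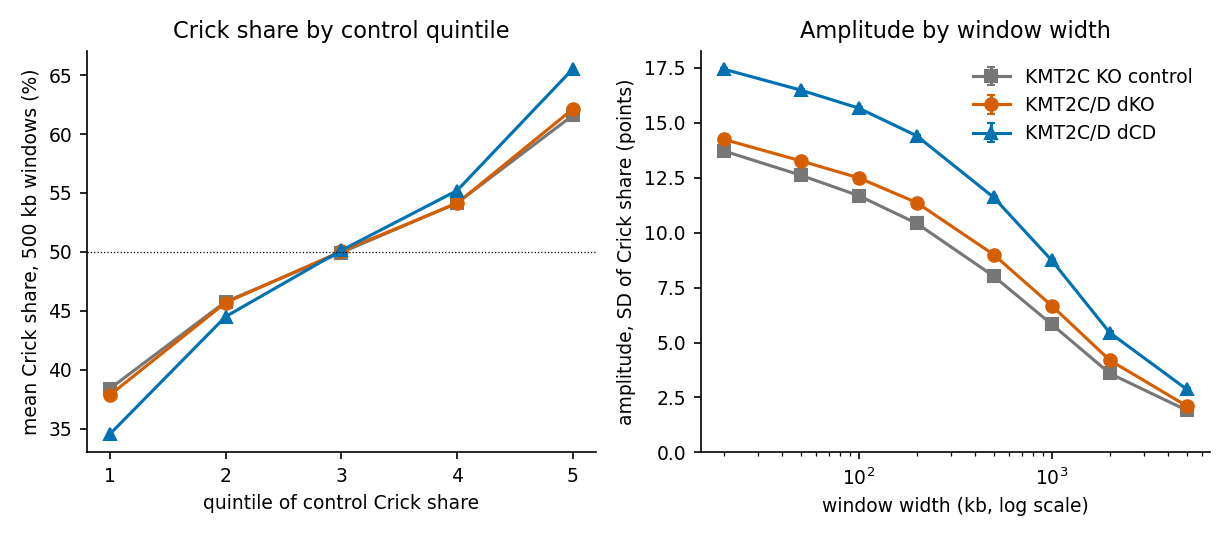
Left, mean Crick share (%) of 500 kb windows in quintiles sorted by the Crick share of the naive control; right, amplitude (SD of the Crick share in percentage points, counting variance removed, bars 95% counting intervals smaller than the symbols) against window width in kb on a log axis. The dCD curve runs from 34.5% to 65.5% while dKO runs from 37.8% to 62.1%, and the dCD amplitude lies above that of dKO at every width.

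The pattern along the chromosomes was nevertheless shared. Over 500 kb windows the Crick shares of the mutants had a Pearson r of 0.940, or 0.973 with counting noise removed, and over 50 kb windows 0.828 and 0.959. Windows are neighbours on the same chromosomes and share base composition, so these are descriptions. The median difference over 500 kb windows was 0.0399 points and its SD 4.42 points, of which counting alone gives 2.66. The amplitude was larger in dCD where genes are sparse and where they are dense. In the 1219 windows without a protein-coding transcription start site (TSS) it was 8.30 in dKO and 10.7 in dCD, and in the 641 windows with 10 or more TSSs it was 7.83 and 10.01.

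Single windows that differed strongly were few. A Crick share at least 10 points higher in dCD, with a counting interval without 0, was found in 68 of 5004 windows of 500 kb (1.36%), and at least 10 points lower in 61 (1.22%). Of these, 64 and 59 stood alone, with no called neighbour of the same direction, and the longest run was 2 windows. The values closest to the limit were 10.1 points inside and 9.98 outside it for higher windows, and 10.1 and 9.95 for lower ones. In the higher windows the median share was 54.1% in dKO, 66.6% in dCD and 56.2% in the control. In the lower windows it was 45.6% in dKO, 34.5% in dCD and 43.4% in the control. The share lay farther from 50% in dCD in 64 of the 68 higher and 51 of the 61 lower windows, against 71.4% of all windows. The mutants were on opposite sides of 50% in 20 of the 68 and 19 of the 61, against 11.4% of all windows. The windows were called on the shares of these same mutants, so part of both contrasts is built into their choice and nothing is read from them. With the T minus A component removed, 38 windows were called higher and 31 lower. To set aside the difference in amplitude, the deviations of dCD from 50% were multiplied by the ratio of the 50 kb amplitudes, dKO over dCD, and dKO was left as it was. After this rescaling 14 windows of 500 kb were called higher and 17 lower. With the ratio of the 500 kb amplitudes, a setting chosen after seeing the data, 12 were called higher and 15 lower.

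The windows were chosen for a large naive difference, so a smaller one in any other pair of tracks is built into their choice. In EpiLCs the difference between the mutants had the same sign in 53 of the 68 higher and 48 of the 61 lower windows, against 49.1% positive and 50.9% negative values over all windows, and it passed 10 points in 0 and 3 of them, against 0.040% and 0.080% of all windows. The EpiLC pair comes from the same lines and shares their backgrounds. Chromosome X held 8 higher and 9 lower windows, 6.03% of its 282 windows, against 2.37% on the autosomes. Its windows were also shallower, with a median of 306 reads in dCD against 745 on the autosomes, and the part of depth in this excess was not tested. In 50 kb windows a difference of at least 20 points was found in 975 of 49338 windows that were higher (1.98%) and 945 that were lower (1.92%) in dCD. The median reads in them were 63 and 60 in dCD, and 68 and 69 in dKO. Over all 50 kb windows the SD of the difference was 9.81 points, of which counting alone gives 8.25. How many of the calls come from counting was not tested. After rescaling by the 50 kb amplitudes, as above, 462 were called higher and 399 lower. With the T minus A component removed they were 682 and 696.

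**Figure D2:**
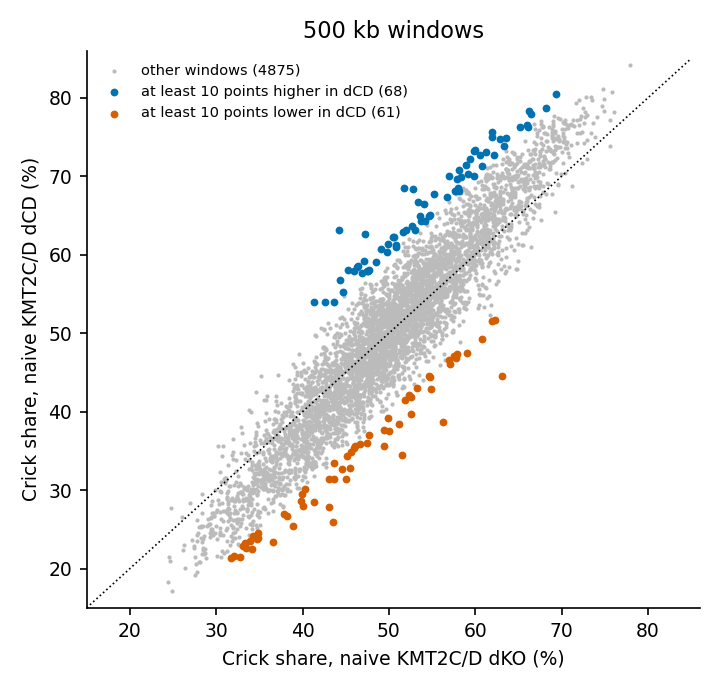
Crick share (%) of each 500 kb window in naive dKO (horizontal axis) and naive dCD (vertical axis), with the line of equal values dotted and the 68 higher and 61 lower windows coloured. The cloud is steeper than the dotted line, and the coloured windows form its edges along the whole range.

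The window with the largest rise, chr4:77500001-78000000 (mm10), holds no protein-coding TSS. Its Crick share was 44.2% of 572 reads in dKO and 63.1% of 423 reads in dCD, a difference of 18.9 points (12.7 to 24.9), with 48.96% in the control. The EpiLC mutants differed there by 0.218 points. At chr4:87000001-87500000, which holds the TSS of Slc24a2, a sodium, potassium and calcium exchanger, the share was 52.7% in dKO and 68.4% in dCD. A window on chromosome 9 with the TSS of Cadm1, a cell adhesion molecule, rose by 13.0 points, from 56.97% to 69.98%, and by 6.71 points in EpiLCs. The 10 windows with the largest rise spanned 13.0 to 18.9 points, and the control lay nearer to dKO in 9 of them, against 65.6% of all windows. Their other longest genes were Gm14459, Dusp10, Zfp182, Wdr17, Zfand6, Sdr16c5 and Stag2.

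Among the windows that fell, the largest difference was at chrX:141000001-141500000, which holds the TSS of Col4a6, a chain of basement membrane collagen. The share there was 63.1% of 293 reads in dKO, 44.5% of 265 reads in dCD and 58.6% in the control, and the EpiLC mutants differed by -7.52 points. A window on chromosome 1 with the TSS of Rims1, which acts in synaptic vesicle release, had 56.3% in dKO, 38.7% in dCD and 53.6% in the control. Both windows had a rightward majority in dKO and a leftward one in dCD. The next gene windows were those of Hs6st2, Xlr5a, Scfd1, Aven, Tspyl5 and Gnptab, and 2 of the 10 held no TSS. The 10 falls spanned 12.8 to 18.6 points in size, with the control nearer to dKO in 8, a share not far from that over all windows.

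At promoters the strand bias was also larger in dCD, by less than the amplitude. Strand bias compares the Crick share over 25 kb on either side of a site, right less left, so a positive value means that forks leave the site in both directions. Over 20493 protein-coding TSSs with at least 10 reads on each side it averaged 6.29 points in dKO and 6.93 in dCD, with 6.44 in the control. The difference of 0.640 points (0.428 to 0.852) was positive on 17 of 20 chromosomes. In relative terms this was 1.102 times, against 1.24 times for the amplitude at 50 kb, and after rescaling of dCD by the 50 kb amplitudes the TSS difference was -0.714 points. Much of the bias itself followed T minus A. Without that component, the means were 2.67 and 3.03 points and the difference 0.359 points (0.147 to 0.571). With sides of 10 kb the interval of the difference included 0 (0.273, -0.0963 to 0.643).

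In the naive tracks as deposited the difference grew with the CpG content of the promoter, counted within 500 bases of the TSS. In the quartile with the fewest CpGs (0 to 12) the strand bias was 1.76 points in dKO and 1.67 in dCD, a difference of -0.0874 (-0.560 to 0.385). In the quartile with the most (69 to 172) it was 9.60 and 10.7 points, a difference of 1.08 (0.661 to 1.504). The gap between these quartiles was thus 1.17 points wider in dCD (0.537 to 1.80). It was -0.589 points wider after the same rescaling, and 0.690 (0.0571 to 1.32) without the T minus A component. With sides of 10 kb the interval of this value included 0 (0.791, -0.371 to 1.95), with sides of 100 kb it was 2.29 points, and over isolated TSSs 2.02. In the 3 upper quartiles the bias in dCD was 1.103, 1.116 and 1.113 times that in dKO. Without the T minus A component the differences in the 4 quartiles, from fewest to most CpGs, were -0.153, 0.374, 0.609 and 0.538 points. In EpiLCs the TSS difference was 0.358 points over all TSSs, and 0.154, 0.271, 0.521 and 0.452 in the same quartiles. In neither case was it largest in the highest quartile.

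**Figure D3:**
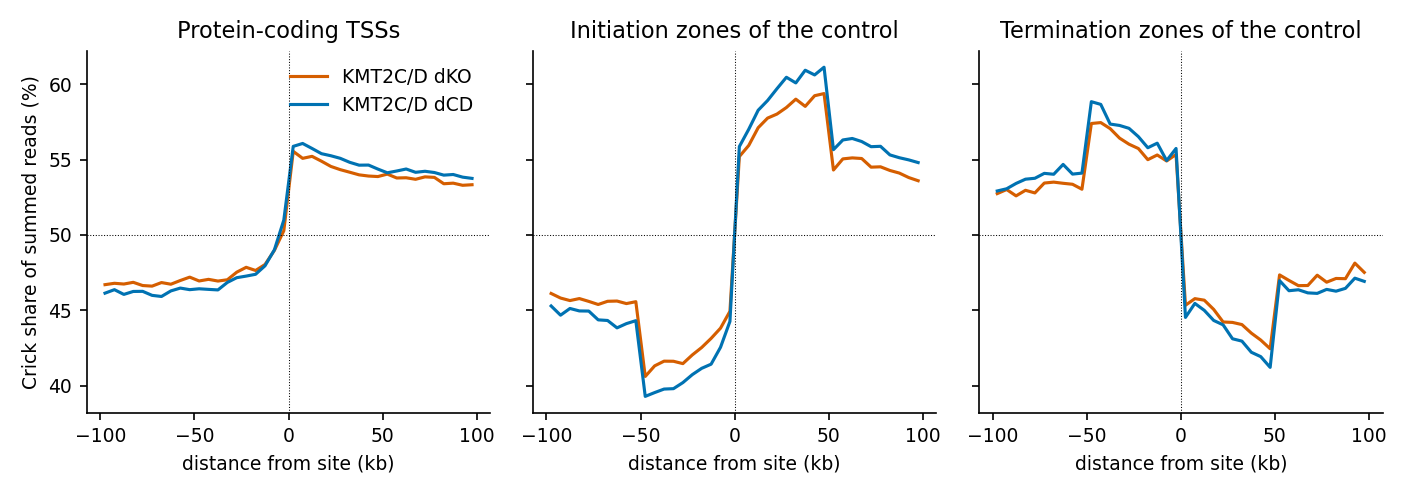
Crick share (%) of summed reads in 5 kb steps up to 100 kb from protein-coding TSSs (in the direction of transcription) and from initiation and termination zones called in the naive control, for naive dKO and dCD. Both tracks climb across TSSs, the range being 8.95 points in dKO and 10.2 in dCD; at the zones both show a step 50 kb from the site, the width of the sides used to call them.

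The promoters of 4 TSSs with strong differences are shown as examples of different CpG content. They were picked with their values known. Each is the RefSeq stretch (GRCm38.p6) from 250 bases before to 50 bases after a start of the gene, 5′ to 3′ on the strand of the gene, with CpG in capitals. Klf4 (chr4:55532426-55532725, minus strand) and Tmem243 (chr5:9100487-9100786, plus strand) hold 40 and 36 CpGs. Rpl39 (chrX:37085173-37085472, minus strand) holds 17 and Rph3a (chr5:121010043-121010342, minus strand) 7.
Klf4: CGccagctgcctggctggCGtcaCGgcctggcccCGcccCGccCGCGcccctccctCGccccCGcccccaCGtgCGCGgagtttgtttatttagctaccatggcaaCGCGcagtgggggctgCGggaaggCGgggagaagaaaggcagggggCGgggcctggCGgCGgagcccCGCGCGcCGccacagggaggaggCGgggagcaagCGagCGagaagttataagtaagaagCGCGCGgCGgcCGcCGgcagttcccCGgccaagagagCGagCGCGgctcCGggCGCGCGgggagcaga
Tmem243: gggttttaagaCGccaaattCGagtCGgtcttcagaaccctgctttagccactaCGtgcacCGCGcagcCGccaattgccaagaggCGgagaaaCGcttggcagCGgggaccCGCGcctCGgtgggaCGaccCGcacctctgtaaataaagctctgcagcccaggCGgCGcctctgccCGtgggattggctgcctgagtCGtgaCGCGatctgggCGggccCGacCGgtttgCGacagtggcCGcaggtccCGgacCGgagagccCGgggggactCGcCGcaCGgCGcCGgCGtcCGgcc
Rpl39: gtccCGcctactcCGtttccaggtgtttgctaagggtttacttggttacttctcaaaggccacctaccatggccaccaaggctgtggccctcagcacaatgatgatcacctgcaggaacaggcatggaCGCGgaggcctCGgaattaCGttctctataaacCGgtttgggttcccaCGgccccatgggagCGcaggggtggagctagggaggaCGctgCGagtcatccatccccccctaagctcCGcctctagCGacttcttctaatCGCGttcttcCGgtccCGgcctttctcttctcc
Rph3a: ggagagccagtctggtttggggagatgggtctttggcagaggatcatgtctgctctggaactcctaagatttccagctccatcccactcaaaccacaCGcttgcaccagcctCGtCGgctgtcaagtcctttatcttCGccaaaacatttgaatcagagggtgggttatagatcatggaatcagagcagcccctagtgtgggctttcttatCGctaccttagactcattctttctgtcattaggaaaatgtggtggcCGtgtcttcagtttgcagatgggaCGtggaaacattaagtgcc
Of all 32851 promoters in the table, 3.91% hold at least as many CpGs as Klf4, 6.23% as Tmem243, 31.4% as Rpl39 and 52.1% as Rph3a, and the median promoter holds 7. The strand bias difference described next was positive at Klf4 and Rpl39 and negative at Tmem243 and Rph3a.

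For single TSSs, sides of 100 kb were used to reach enough reads, with at least 50 on each side in both mutants. Among 20520 such TSSs, 376 (1.83%) had a strand bias at least 20 points higher in dCD with a counting interval without 0, and 245 (1.19%) one at least 20 points lower. The median number of CpGs within 500 bases was 45 at the TSSs with higher bias, 30 at those with lower bias and 44 at all TSSs. In the TSSs with higher bias the median was 4.21 points in dKO and 28.3 in dCD, with 14.1 in the control, which lay between both mutants. In those with lower bias it was 9.03 in dKO, -15.6 in dCD and -1.80 in the control. Both sets were chosen for a large difference between the mutants, so a control value between them is partly built into the choice. As for windows, the difference followed the bias that the control had. In the quintile of TSSs with the lowest control bias dCD was 1.72 points lower than dKO, in the middle quintile 0.301 points higher, and in the highest quintile 4.75 points higher, 28.0 against 23.3.

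The largest rise was at Pknox2, a homeobox transcription factor on chromosome 9. Its strand bias was -1.43 points in dKO and 37.4 in dCD, with 9.03 in the control, a difference of 38.9 (24.6 to 52.3). In EpiLCs the values were 7.81 and 13.8. At Ebp, a sterol isomerase of cholesterol synthesis, the bias was 9.87 points in dKO, 44.4 in dCD and 14.9 in the control, and at Ralgapa2, which acts on Ral GTPases, it was 13.7, 48.3 and 25.8. These genes rose from a weak bias in dKO to a strong one in dCD. The other TSSs among the 10 largest rises were Zdhhc15, Olfr1051, Cmtr2, Gm6034, Steap3, Gm614 and Prpmp5, and the range was 34.3 to 38.9 points.

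The largest falls reached -35.1 points, at the olfactory receptor gene Olfr239. At Rph3a, a synaptic vesicle protein, the bias was -1.10 points in dKO, -34.0 in dCD and -21.3 in the control, and the EpiLC difference was -10.2. At Tmem243 it was 19.2 points in dKO, -11.8 in dCD and 9.75 in the control. Smarcd3, a subunit of SWI/SNF chromatin remodelers, had 10.8 points in dKO and -20.1 in dCD. Gm7102, Olfr25, Olfr521, Rbm44, Gm8909 and Tas2r110 completed the 10. Olfactory and taste receptor genes have close copies, so reads there may be placed uncertainly. The rise at Gm6034 and the fall at Gm8909 share 1 stretch of the histocompatibility region on chromosome 17. In the 100 kb to the right of the Gm6034 TSS, at position 36042961, the Crick share was 36.2% of 94 reads in dKO and 73.5% of 147 reads in dCD. In EpiLCs it was 46.0% of 300 reads and 65.7% of 591 reads, so both direction and read number differed between the lines there.

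At genes of naive pluripotency, the network that holds ESCs in the state studied here, the strand bias was higher in dCD at most but not all members. Of the 17 list members with enough reads, 13 were higher in dCD, 8 had a counting interval above 0 and 0 one below it. Over all TSSs 54.4% were higher, 7.32% had an interval above 0 and 4.32% one below it. The median difference of the list was 12.5 points, against 0.939 over all TSSs and 4.89 over the TSSs of the highest quintile of control bias, to which 9 of the 17 belonged. With 25 kb sides the mean over 18 members was 10.9 points in dKO and 17.7 in dCD, a difference of 6.78 whose interval included 0 (-0.113 to 13.7). In EpiLCs the same mean differed by 3.17 points.

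Several transcription factors were among the naive members with the largest differences. At Klf4 the bias was 8.23 points in dKO, 28.3 in dCD and 13.1 in the control, a difference of 20.04 (6.75 to 32.8). The values for Klf4 rest on fewer reads in dCD, 140 to the left and 137 to the right of the TSS, than in dKO, 245 and 239. At Tbx3 the bias was 21.3 points in dKO, 40.7 in dCD and 25.95 in the control. At Nanog it was 11.8, 26.2 and 15.04 points. Gbx2 differed by 15.8 points and Klf5 by 15.7. All 5 had the highest bias of the naive tracks in dCD. Dppa5a, Klf2 and Fgf4 also had intervals above 0, with differences of 16.9, 14.6 and 14.1 points. Esrrb, an orphan nuclear receptor of the same network, went the other way, with -3.49 points in dKO and -14.3 in dCD, within counting error (-24.3 to 2.85).

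The other pluripotency genes differed less. Of 10 core factors 9 were higher in dCD, with a median difference of 6.99 points, but only Tdgf1, a co-receptor of Nodal, had an interval above 0 (13.5 points, 1.01 to 25.96), and Lin28a, an RNA-binding protein, had one below 0 (-15.4 points, -28.7 to -1.62). Pou5f1, which encodes OCT4, had 35.9 points in dKO and 42.1 in dCD (interval of the difference -7.14 to 19.5). At Sox2, its partner, the values were 12.4 and 15.1 points. Of 16 formative genes, which mark the step towards EpiLCs, 9 were higher, with a median difference of 1.78 points, and only Sall2 had an interval above 0. Over all TSSs 54.4% were higher, with 7.32% of intervals above 0 and 4.32% below. In the highest quintile of control bias 71.1% were higher, with a median difference of 4.89 points. To that quintile belonged 7 of the 10 core factors and 7 of the 16 formative genes. Differences between lists were not tested.

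Housekeeping genes and the replication machinery serve as a comparison. Of 79 genes for ribosomal proteins 53 were higher in dCD, with a median difference of 4.6 points, 7 intervals above 0 and 2 below, which is near the 7.32% and 4.32% over all TSSs. Rpl39 and Rps10 were the only members past 20 points, at 25.9 and 20.9, against 1.83% of all TSSs. Rpl39 had 12.2 points in dKO, 38.1 in dCD and 33.3 in the control, so here dKO stood apart from the other naive tracks. In EpiLCs the control had 12.2 points, dKO 20.6 and dCD 23.99. Of 29 genes for origin licensing and firing 16 were higher, with a median difference of 0.0931 points, and of 24 fork genes 12, with a median of 0.0761. Both lists had 4 intervals above 0, and the fork genes 2 below. Of 19 subunits of KMT2 complexes 13 were higher, with 3 intervals above 0. Against 54.4% higher and 7.32% with an interval above 0 over all TSSs, nothing particular to the 3 lists is read from counts this small. Kmt2c itself had a bias of 30.3 points in dKO and 35.4 in dCD, and Kmt2d 1.52 and 2.35, both within counting error. Of 7 genes for H3K4 demethylases and their CoREST partners Rcor1 and Rcor2, 5 were higher with 100 kb sides, but 3 with 25 kb sides, where their median difference was -5.14 points. Bins of 1 kb do not resolve the mutations themselves.

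**Figure D4:**
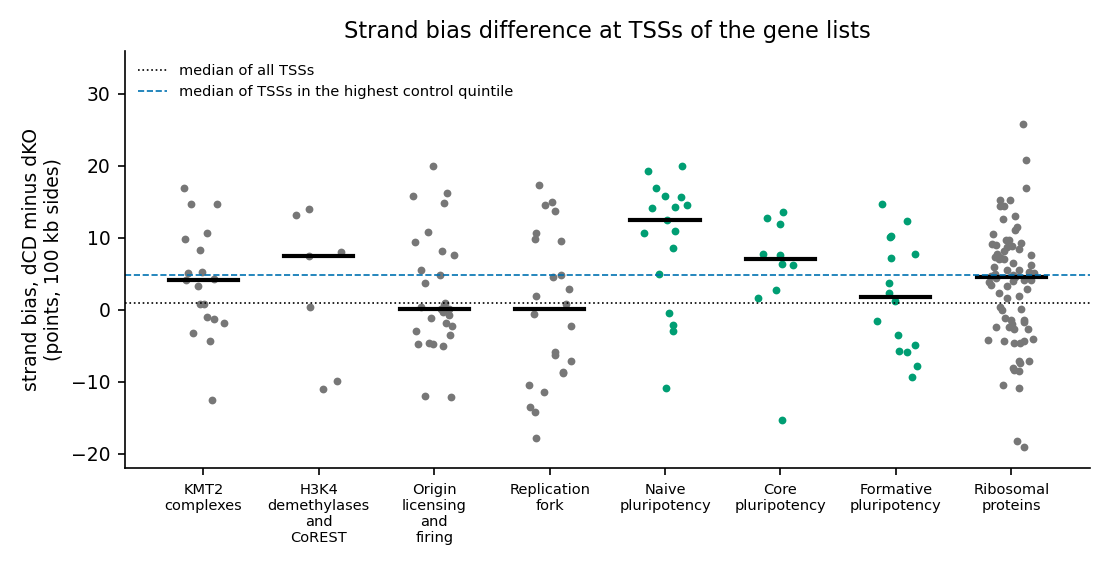
Difference in strand bias (dCD minus dKO, percentage points, 100 kb sides) at the TSS of each member of 8 gene lists, with the list median as a black bar, the median of all TSSs (0.939) dotted and that of TSSs in the highest quintile of control bias (4.89) dashed. The median of the naive pluripotency list, 12.5 points, is the highest of the 8, and 13 of its 17 points lie above 0.

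Initiation zones of the control had a larger strand bias in dCD, by most within 10 kb of a TSS. Initiation zones were the local maxima of strand bias in the naive control, of at least 20 points with 50 kb sides, and 7309 of 7730 had enough reads in both mutants. Their strand bias was 12.6 points in dKO and 14.6 in dCD, a difference of 1.97 points (1.57 to 2.37), positive on 19 of 20 chromosomes. After rescaling of dCD by the 50 kb amplitudes it was -0.874 points. Zones called in the EpiLC control gave a difference of 3.34, and thresholds of 10 and 30 points gave 1.02 and 3.56. In the 2417 zones within 10 kb of a TSS it was 17.0 and 20.3 points, a difference of 3.31 (2.67 to 3.95). In the 3655 zones over 25 kb from any TSS it was 9.50 and 10.3 points, a difference of 0.829 (0.217 to 1.44). These intervals do not overlap. The corresponding EpiLC differences were 1.14 points at TSS-proximal and -0.112 at TSS-distal zones.

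At termination zones, the local minima, the bias was more negative in dCD by a smaller amount. Over 7379 of 7869 zones it was -9.65 points in dKO and -10.3 in dCD, a difference of -0.691 (-1.10 to -0.281). With the T minus A component removed and zones called again this difference was -0.0248 (-0.594 to 0.545), and after rescaling by the 50 kb amplitudes 1.33. The interval also included 0 with sides of 10 kb (-0.424, -1.20 to 0.352) and with a zone threshold of 30 points (-0.814, -1.79 to 0.160). Zones called in the EpiLC control gave -1.66, those called in the 3 EpiLC tracks -1.90, and sides of 100 kb -1.12. At the same zones as called it was -0.311 without that component. Within 10 kb of a TSS the difference at 611 termination zones was -0.147 (-1.53 to 1.24), and over 25 kb from any TSS -0.741 (-1.19 to -0.287). The profiles of both mutants had a step at the edge of the 50 kb sides by which zones had been called in the control, of 5.02 points in dKO and 5.25 in dCD at initiation zones, where the T minus A content also stepped by 1.964 percentage points. With the T minus A component removed, the steps were 1.64 and 1.92 points. At the same initiation zones the bias was then 6.18 points in dKO and 7.54 in dCD, a difference of 1.36, with 2.57 at TSS-proximal and 0.304 at TSS-distal zones.

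In gene bodies forks moved with transcription slightly more often in dCD. In 5000 protein-coding genes of at least 50 kb, 55.2% of reads came from forks moving in the direction of transcription in dKO and 56.1% in dCD, with 55.7% in the control. The difference of 0.922 percentage points (0.801 to 1.04) was positive on 20 of 20 chromosomes. It was 1.37 points in genes of 50 to 100 kb, 0.872 in those of 100 to 300 kb and 0.654 in those of at least 300 kb. After rescaling by the 50 kb amplitudes the difference over all 5000 genes was -0.266 points, and in EpiLCs it was 0.316. Without the T minus A component the shares were 50.7% in dKO and 51.3% in dCD, a difference of 0.603. Much of the excess over 50% thus followed T minus A.

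The share of reads that each 5 Mb window received was alike in both lines outside a few regions. Of 526 windows, 471 (89.5%) lay within 1.1-fold, 4 had a share at least 25% higher in dCD (0.76%) and 4 one at least 20% lower (0.76%), which is the same limit on a ratio scale. The higher windows were the 4 that cover chromosome 2 from 165000001 to the end, at 1.35 to 1.44 times, and their longest genes were Tshz2, Dok5, Cdh4 and Zbtb46. Chromosome 6 as a whole received 1.11 times the reads.

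The lower windows were on chromosomes 18, 4 and X. At chr18:85000001-90000000, with Dok6, the share was 0.150% in dKO and 0.0966% in dCD, a ratio of 0.642 (0.616 to 0.669), and the neighbouring window with Zfp407 had a ratio of 0.702. On chromosome 4 the window with Agbl4 had a ratio of 0.721, and on chromosome X the one with Pcdh11x 0.797. The next lowest, with Gm7247 on chromosome 14, had 0.8004, just short of the limit. In all 8 the dKO share was within 0.938 to 1.07 times that of the control. The EpiLC ratios of these windows were 1.33 to 1.40 for the higher and 0.569 to 0.810 for the lower ones, so the regions recurred in a second pair of tracks from the same lines. Reads per window cannot tell copy number from replication timing. Over all windows the log2 ratio had a Pearson r of 0.376 with GC content, and whether base composition had a part in the smaller differences was not tested.

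**Figure D5:**
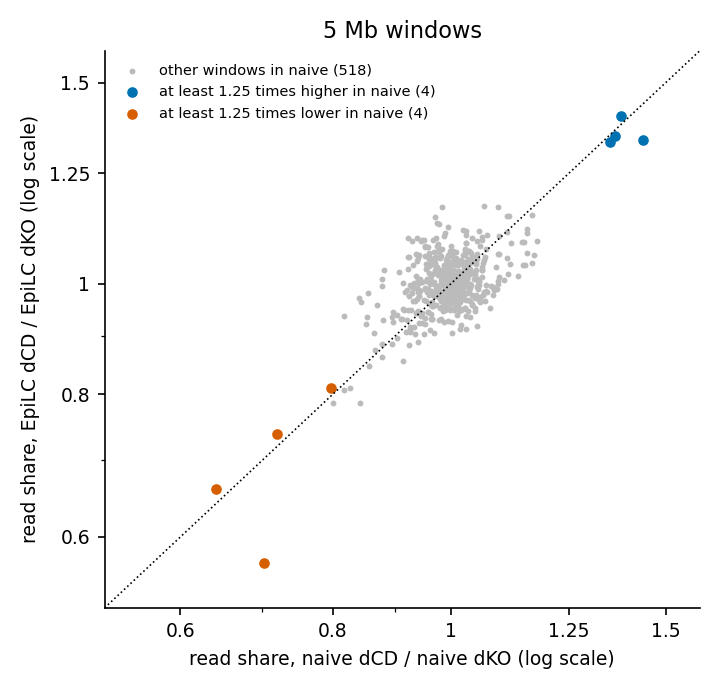
Ratio of the share of reads, dCD over dKO, in each of 526 windows of 5 Mb, in naive cells (horizontal axis) and EpiLCs (vertical axis), both on log scales with the line of equal ratios dotted. The 4 higher windows and the lower ones of chromosomes 18 and 4 stand apart on both axes, whereas the lower window of chromosome X, at 0.797 and 0.810, has windows that were not called beside it.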

How the data were processed

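OK-seq libraries of 2 replicates per condition were processed by the authors, who mapped read pairs with Bowtie2 (mm10) and counted Watson and Crick reads in 1 kb bins. FastQC, Trim Galore and Picard are also listed in the submitters' processing notes, without versions, as is the build hg19. The deposited values are signal, given as read density per base with both replicates summed and no scaling between libraries. Each was a whole multiple of 0.001 (largest deviation 0), and was multiplied by 1000 to give reads. Positions were read as bin ends, which put 0 reads into bins of N only, against 3139 for bin starts.

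Bins over 10 times the median count were left out (126), as was chromosome Y. Windows needed 20 (50 kb), 200 (500 kb) or 1000 (5 Mb) reads in both tracks. TSSs were those of GENCODE M21. Intervals are Wilson and Newcombe intervals or their sums. The T minus A component was fitted per track on 1 kb bins against bins within 10 kb, and had slopes of 1.70 (KMT2C/D dKO) and 1.82 (KMT2C/D dCD). Python 3.11.15, numpy 2.4.6, scipy 1.17.1 and pandas 2.3.3 were used, and the scripts were tested on simulated data.

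Named are Kmt2c, Kmt2d, members of the gene lists, the 10 TSSs (1 per 200 kb) and 10 windows of 500 kb with the largest difference either way, and 5 windows of 5 Mb, by their longest gene, of which 1 is not reported here. The comparison, its members and the lists were chosen with earlier results of these data known.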

Additional observations from a re-analysis of the deposited data

Results flagged for a closer look

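In 9 results the difference between dCD and dKO had one sign in naive cells, with a counting interval without 0, and the opposite sign in EpiLCs. Each state gave 1 track per genotype, and the difference between the states was not tested. No interval was asked of the EpiLC value, and several of the EpiLC values lie close to 0. At initiation zones over 25 kb from a TSS it was 0.829 points in naive cells and -0.112 in EpiLCs, and at termination zones over 25 kb from a TSS -0.741 and 0.00354. The Crick share of the window of Dusp10 at chr1:184000001-184500000 differed by 15.4 points in naive cells and -2.47 in EpiLCs, and that of the window without a TSS at chr16:40000001-40500000 by -13.9 and 0.360. The strand bias differed by 37.8 points in naive cells and -2.22 in EpiLCs at Zdhhc15, by 36.04 and -2.99 at Cmtr2, by -35.1 and 0.406 at Olfr239, by -32.3 and 2.66 at Olfr521, and by 20.04 and -0.434 at Klf4. Single TSSs and windows were named for their naive difference, so a smaller value in a second pair of tracks is built into their choice.

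Chromosome Y, which no comparison used, held 0.0907% of the reads of naive dKO, against 0.0841% in the control and 0.0685% in dCD.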

How the results depend on the processing

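Of 133 recomputed values under other settings, 88 stayed within counting error of the main value, or within 1.5 times of a count, 39 moved and 6 changed sign. Of 83 values that are not counts, 77 kept their direction.

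Rescaling of dCD by the 50 kb amplitudes turned the difference at all TSSs (-0.714), between CpG quartiles (-0.589), at initiation zones (-0.874), at termination zones (1.33) and in gene bodies (-0.266), and gave a contrast of 0.671 between control quintiles, with 14 and 17 windows of 500 kb and 462 and 399 of 50 kb called. With the 500 kb amplitudes, chosen after seeing the data, the contrast was -0.230 (-0.432 to -0.0280), with 12 and 15 windows of 500 kb. Without the T minus A component the amplitude differed by 2.81 (50 kb) and 2.23 points (500 kb), the contrast by 5.60, TSSs by 0.359, termination zones by -0.0248 when called again (-0.311 at the same zones) and gene bodies by 0.603, with 38 higher and 31 lower 500 kb windows. TSSs differed by 0.273 with 10 kb sides (-0.0963 to 0.643), 0.879 with 50 kb and 0.885 with 100 kb; with 100 kb sides CpG quartiles differed by 2.29 and termination zones by -1.12. Over isolated TSSs CpG quartiles differed by 2.02. Summed reads gave 2.48 and -1.10 at initiation and termination zones. Zones called in the EpiLC control gave 3.34 and -1.66, and in all EpiLC tracks 3.35 and -1.90. Thresholds of 10 and 30 points gave 1.02 and 3.56 at initiation zones. Windows sorted by the EpiLC control gave a contrast of 6.47, and genes of at least 100 kb a difference of 0.777. A minimum difference of 15 points left 4 higher and 5 lower 500 kb windows, and one of 30 points 82 and 75 of 50 kb. In 2 Mb windows 8 were higher and 17 lower, and past 1.5 times 0 higher and 1 lower 5 Mb window was left. The cause of these changes was not tested, beyond what each setting does itself.

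No paired analysis was possible because both replicates are summed in each track, and for the same reason leaving out replicates was not run. Depth limits single sites, as 25 kb held 34.5 to 37.2 reads on average.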

Other observations

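Whole chromosomes also received different shares of the reads. Chromosome 6 had 5.88% of the reads in naive dKO, 6.52% in dCD and 5.86% in the control, and the EpiLC ratio of the mutants was 1.06. Chromosome 14, at the low end, had 4.55% in dKO and 4.29% in dCD, a ratio of 0.943, and 0.968 in EpiLCs. Chromosome 3 was lower than in the control in both mutants, at 0.949 times in dKO and 0.921 times in dCD.

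At the gene bodies of the targeted genes the Crick shares of the mutants differed within counting error. Kmt2c, on the minus strand of chromosome 5, had 24.0% of 450 reads in dKO and 19.2% of 426 reads in dCD, a difference of -4.75 points (-10.2 to 0.717). Kmt2d, on the minus strand of chromosome 15, had 35.6% of 132 reads and 26.04% of 96 reads, a difference of -9.56 points (-21.0 to 2.70). Among replication genes, Orc6, a subunit of the origin recognition complex, had a strand bias of -23.4 points in naive dKO and -3.44 in dCD, a difference of 19.99 (3.89 to 35.4), with -7.25 in the control. In EpiLCs the difference was -13.7 points.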
